A study of Micropterus salmoides with 18 samples.

Results

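The synaptonemal complex and the meiotic cohesin were followed through 10 genes (sycp1, syce2, sycp2, sycp2l, sycp3, hormad1, trip13, rec8b, rad21l1 and smc1b) in gonads of largemouth bass (Micropterus salmoides), a farmed freshwater fish. The genes were chosen by name for their roles in meiotic chromosome structure, with earlier results of these data known. All 10 were found among the 43106 entries of the expression table. The study kept 216 fish in 12 tanks, 18 to a tank and the sexes apart, and names a control and a warmed group with 3 tanks per group. Which tanks the day-0 libraries came from is not stated. The water was held at 20 °C in the control tanks and warmed to 28 °C over 2 h in the others. IC stands for day 0, NC for day 28 in control water and HT for day 28 in warmed water. The letter F or M follows, and each of the 6 labelled groups (IC-M, NC-F, HT-M, IC-F, NC-M and HT-F) has 3 libraries, 18 in all. No strain, age or genotype is given in the sources used here. Whether the 3 libraries of a group are separate animals is not stated, so p-values reflect only how far these libraries vary, in part perhaps technically.

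Values are FPKM (fragments per kilobase, scaled to the mapped fragments), so levels of different genes are compared per length. Only FPKM were used, and the depth of the libraries is unknown. Library sums ran from 745181 to 1020590 FPKM, and between 15152 and 21638 genes reached 1 FPKM. Libraries are called ovary-type where egg genes were high and sperm genes low, and testis-type where it was the other way round. On the log2(FPKM + 1) scale, the median level of 12 oocyte genes lay between 7.56 and 8.35 in the 9 ovary-type libraries (HT-M, IC-M and NC-F) and between 0.84 and 2.46 in the 9 testis-type libraries (HT-F, IC-F and NC-M). For 26 genes of spermatids and sperm, the median level lay between 0.41 and 0.91 in the ovary-type libraries and between 3.60 and 6.48 in the testis-type ones. The IC and HT libraries thus go against their letters, the NC libraries follow theirs, and every direction below refers to libraries as labelled. Within a type, each comparison with an NC group therefore also crosses the letters F and M. Since the sexes were kept apart, temperature or day cannot be told apart there from the letter and its tanks. The labels do not say which titles, if any, are wrong, so the temperature or day of a library rests on its title alone. Replicates correlated at 0.958 to 0.990 over the log2 values of all genes in 5 groups, and at 0.903 to 0.945 in NC-M, whose libraries stand apart from each other. The members' comparisons of NC-M within the testis-type libraries, and those between the types, are therefore also given without its replicate 3 where that changed a call.

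In meiotic prophase, sister chromatids are held along a protein axis made of cohesin, and homologous axes are then zipped together by the synaptonemal complex. Cohesin is a ring, and meiotic cells replace its SMC1 subunit and its kleisin, the subunit that closes the ring, by meiotic forms (here smc1b, rec8b and rad21l1). The axes become the lateral elements (sycp2, sycp3), which transverse filaments (sycp1) join across a central element (syce2). Hormad1 coats axes that are not yet paired, and the ATPase trip13 strips such HORMA-domain proteins from paired axes. These structures form in spermatocytes of a testis and in young oocytes of an ovary, before those oocytes grow.

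Of the 10 genes, 8 were higher in every testis-type library than in any ovary-type library, as were 32% of the 25184 genes tested over all 18 libraries. The exceptions were sycp2l, which was higher in every ovary-type library, as were 17.4% of all genes, and trip13, whose levels in the types overlapped. Sycp1, smc1b and sycp2l passed the filter of these tests through 1 gonad type alone, so their place in these counts can partly follow from it. The transverse filament gene sycp1 was at most 0.29 FPKM in the ovary-type libraries. It had levels of 0.05, 0.26 and 0 FPKM in IC-M, of 0.29, 0.08 and 0.24 in NC-F and of 0.05, 0.09 and 0.18 in HT-M. In the testis-type libraries its levels were 126.19, 105.81 and 129.46 FPKM in IC-F, 8.36, 11.05 and 72.68 in NC-M, and 105.61, 91.5 and 92.15 in HT-F. No ovary-type library reached 1 FPKM, and all 9 testis-type libraries exceeded it, with NC-M 1 and 2 far below the other 7. Because an exact 0 can be a failed estimate, no mean is given for IC-M.

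Syce2, of the central element, had the same pattern. Its levels were 0.72, 1.43 and 0.57 FPKM in IC-M, 2.54, 1.8 and 0.83 in NC-F, and 1.13, 0.9 and 1.52 in HT-M. They were 137.2, 118.59 and 127.45 FPKM in IC-F, 10.1, 14.51 and 70.76 in NC-M, and 92.99, 86.02 and 74.46 in HT-F. Again NC-M 1 and 2 were the lowest of the testis-type libraries. In the RefSeq annotation of assembly ASM1485139v1, sycp1 overlaps the gene si_ch211-105j21.9 and a long noncoding RNA, and syce2 overlaps gcdha. The strandedness of the counting is not given in the sources used here, so reads may be shared within these pairs. The noncoding RNA stood at 24.3 to 200.4 FPKM in testis-type libraries and si_ch211-105j21.9 at 4.27 to 57.9, and gcdha at 2.65 to 7.68, below the lowest level of syce2 there. In ovary-type libraries si_ch211-105j21.9 stood at 0.03 to 0.91 FPKM and the noncoding RNA at 6.14 to 14.83. Gcdha stood at 1.61 to 3.26 FPKM there (median 2.38), against 0.57 to 2.54 for syce2 (median 1.13). How far the low ovary-type levels of syce2 rest on shared reads was not tested.

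The lateral element genes divided between the gonad types. Sycp3, the main filament protein of the axis, had levels of 7.1, 7.45 and 5.12 FPKM in IC-M, 8.47, 6.89 and 5.97 in NC-F, and 1.71, 0.58 and 0.29 in HT-M. Its testis-type levels were 182.73, 169.83 and 174.29 FPKM in IC-F, 136.49, 225.82 and 413.6 in NC-M, and 457.72, 500.15 and 417.72 in HT-F. The mean in HT-F, 458.5 ± 41.2 FPKM (SD, n = 3), was above 98.8% of the 18417 named genes at 1 FPKM or more. Its partner sycp2 had levels between 0.87 and 1.82 FPKM over the 9 ovary-type libraries. In the testis-type ones the levels of sycp2 were 22.95, 16.55 and 20.15 in IC-F, 14.01, 31.33 and 84.28 in NC-M, and 43.44, 44.07 and 40.36 in HT-F. The paralog sycp2l, known in mouse for its part in oocytes, had levels of 24.33, 25.61 and 19.21 FPKM in IC-M, 24.63, 21.62 and 24.84 in NC-F, and 13.66, 15.3 and 14.53 in HT-M. No testis-type library exceeded 0.9 FPKM for sycp2l. The ratio of sycp2l to sycp2 was therefore 9.36 to 28.6 in ovary-type libraries and 0.00356 to 0.0642 in testis-type ones.

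Hormad1 and trip13, which act on one another as substrate and ATPase, differed in their distribution. Hormad1 had levels of 1.24, 2 and 1.84 FPKM in IC-M, 1.39, 1.67 and 2.27 in NC-F, and 6.95, 5.73 and 6.61 in HT-M. Its testis-type levels were 299.42, 272.15 and 291.49 in IC-F, 122.64, 171.98 and 385.84 in NC-M, and 378.12, 450.22 and 361.58 in HT-F. Trip13 was the member with the most even levels over all 18 libraries together, but not within either gonad type. It stood at 31.29, 30.56 and 26.68 FPKM in IC-M, 34.48, 36.95 and 35.93 in NC-F, and 22.44, 16.17 and 21.39 in HT-M. In testis-type libraries trip13 stood at 11.91, 10.77 and 12.1 in IC-F, 5.97, 9.16 and 22.31 in NC-M, and 32.34, 34.45 and 30.57 in HT-F. In order of mean level, trip13 ran NC-F, HT-F, IC-M, HT-M, NC-M and IC-F, and neighbours overlapped between HT-F and IC-M, between HT-M and NC-M, and between NC-M and IC-F.

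The kleisin rec8b had levels between 1.84 and 3.19 FPKM in all 9 ovary-type libraries. Its testis-type levels were 27.38, 21.77 and 28.7 in IC-F, 27.07, 38.74 and 107.33 in NC-M, and 90.38, 86.42 and 84.21 in HT-F. The other kleisin, rad21l1, was also present in the ovary-type libraries, at 14.29, 13.61 and 9.62 FPKM in IC-M, 14.9, 16.23 and 17.07 in NC-F, and 9.86, 6.16 and 8.7 in HT-M. Its testis-type levels were 60.2, 44.61 and 55.87 in IC-F, 18.5, 24.98 and 67 in NC-M, and 49.05, 54.17 and 46.99 in HT-F. Rec8b was low and rad21l1 moderate in the ovary-type libraries. Smc1b stood at 49.1, 41.14 and 43.09 FPKM in IC-F, 23.44, 40.95 and 76.47 in NC-M, and 93.97, 75.13 and 68.83 in HT-F. In ovary-type libraries smc1b reached 1 FPKM in only 2, namely 1.14 in IC-M 3 and 6.69 in HT-M 3, and the other 7 lay between 0.02 and 0.19.

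**Figure D1:**
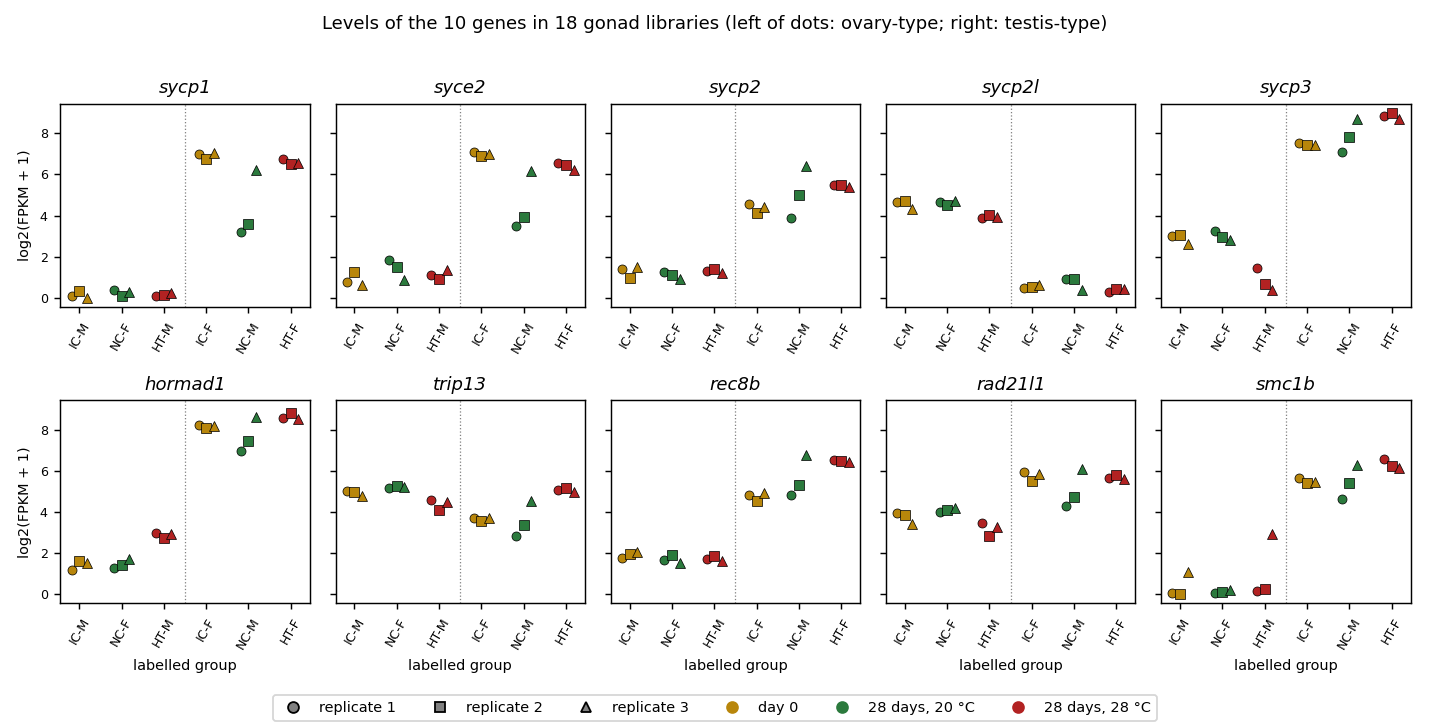
Levels of the 10 genes as log2(FPKM + 1), 1 panel per gene and 1 point per library, with ovary-type groups left of the dotted line and testis-type groups right of it. Sycp2l is the 1 gene with all ovary-type points above the testis-type points, trip13 overlaps, and NC-M replicate 3 is the highest NC-M library for 9 of the 10 genes.

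Labelled groups of unlike type were compared at each sampling, with limma on log2(FPKM + 1) over all 18 libraries and Benjamini-Hochberg adjustment over 25184 genes. At day 0, 8 of the 10 genes were higher in IC-F than in IC-M and 2 were lower, where 49.3% and 28.6% of all genes tested were called higher and lower. After 28 days at 20 °C, 8 were higher in NC-M than in NC-F and 2 lower (48.9% and 27.9% of all genes). After 28 days at 28 °C, 9 were higher in HT-F than in HT-M and 1 lower (47.7% and 26.3%). All 10 genes had groups that did not overlap in each of these comparisons, as had 83.9%, 75.1% and 77.9% of all genes tested. The median log2 difference of the members was 3.82, 3.98 and 4.97, against 0.57, 0.57 and 0.52 for all genes.

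Sycp3 at 28 °C had a log2 difference of 8.02 ± 0.320 (SE, limma adjusted p = 9.83e-12) with mean levels of 458.5 in HT-F and 0.86 in HT-M. Hormad1 differed by 6.75 ± 0.289 at day 0 (limma adjusted p = 1.62e-11). Sycp2l was lower in testis-type groups each time, by a log2 difference of −4.04 ± 0.153 at day 0, −3.89 ± 0.153 at 20 °C and −3.58 ± 0.153 at 28 °C (limma adjusted p at most 2.17e-11). Rad21l1 had the smallest log2 difference among the 8 genes that were higher in the testis-type group at 20 °C, 0.93 ± 0.329 (limma adjusted p = 0.018). That call was lost without NC-F replicate 1 (adjusted p = 0.0501), without NC-M replicate 3 (0.0794) and with only those 6 libraries fitted (0.0982). Trip13 was lower in IC-F than in IC-M (log2 −1.27 ± 0.292, limma adjusted p = 0.000997) and lower in NC-M than in NC-F (−1.64 ± 0.292, limma adjusted p = 0.000119). At 28 °C it was higher in HT-F than in HT-M, by 0.68 ± 0.292 with limma adjusted p = 0.0461, a call that was lost without any 1 of the 6 libraries (adjusted p between 0.0537 and 0.151), with no filter (0.0629) and with a pseudocount of 0.1 (0.0522).

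Ovary-type gonads after 28 days at 28 °C had less sycp3, sycp2l, rad21l1 and trip13 transcript and more hormad1 transcript than those kept at 20 °C (HT-M against NC-F, 9 ovary-type libraries in the fit). As labelled, these groups also differ in their letter, so temperature and letter cannot be told apart. Sycp3 fell from 7.11 ± 1.26 to 0.86 ± 0.750 FPKM (SD, n = 3 each), 8.27-fold, and hormad1 rose from 1.78 ± 0.450 to 6.43 ± 0.630 FPKM, 3.62-fold. Without HT-M replicate 1, the HT-M library with the most sycp3, the fall of sycp3 was 16.3-fold, to a mean of 0.435 FPKM. Of the 8 members tested, 1 was called higher and 4 lower, where 28.7% and 20% of the 17026 genes tested were called higher and lower. The same 5 had groups that did not overlap, as had 61.8% of all genes tested. Sycp1 and smc1b did not pass the filter of 1 FPKM in 3 libraries and were not tested. The median log2 difference of the 8 was −0.47, against 0.07 for all genes.

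On the log2(FPKM + 1) scale sycp3 fell by 2.19 ± 0.271 (SE, limma adjusted p = 0.00051) and hormad1 rose by 1.43 ± 0.166 (limma adjusted p = 0.000373). Trip13 fell by 0.82 ± 0.127 (limma adjusted p = 0.00143), sycp2l by 0.67 ± 0.120 (0.0027) and rad21l1 by 0.90 ± 0.186 (0.00492). Sycp2 (log2 0.21, adjusted p = 0.324), syce2 (−0.28, 0.413) and rec8b (0.01, 0.943) did not pass the test. With all 18 libraries fitted together, trip13 (adjusted p = 0.052) and rad21l1 (0.0572) lost their calls. In bulk tissue, fewer cells of a type and less RNA per cell cannot be told apart.

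The hormad1 and sycp3 differences reversed the order of the 2 genes within a library. The ratio of hormad1 to sycp3 was 0.175 to 0.359 in IC-M and 0.164 to 0.380 in NC-F, and 4.06 to 22.8 in HT-M. The HT-M values rest on sycp3 levels of at most 1.71 FPKM, so only their direction is read. Against ddx4, a germ cell RNA helicase gene whose level was 51.8 ± 6.45 FPKM in NC-F and 52.9 ± 1.30 in HT-M (log2 0.04, limma adjusted p = 0.897), the same groups were set side by side. Ddx4 is 1 of 11 germ cell genes, of which 4 were called higher and 4 lower in HT-M against NC-F. Of all genes tested, 28.7% were higher and 20% lower. A level ddx4 therefore does not stand for a constant germ cell content, and another reference could give other ratios. The ratio of sycp3 to ddx4 was 0.102 to 0.184 in NC-F and 0.00553 to 0.0315 in HT-M, and that of hormad1 to ddx4 was 0.0302 to 0.0386 in NC-F and 0.110 to 0.128 in HT-M. The ratios of sycp2l, trip13 and rad21l1 to ddx4 were also lower in every HT-M library than in any NC-F library. No ratio was tested, since an exact permutation test of 3 against 3 cannot go below p = 0.1.

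Other cell types' markers moved with this comparison. Of the tested markers, 5 of 5 for granulosa and theca cells and 4 of 6 for blood, immune and vessel cells were called higher in HT-M. For Sertoli and Leydig cells 5 of 10 were higher and 1 lower. Of all genes tested, 28.7% were called higher and 20% lower. Only 5 of the 11 granulosa and theca genes passed the filter. In each HT-M library 5 of the 11 reached 1 FPKM, against 3 or 4 in each NC-F library. The filter can thus admit a gene through HT-M alone, and the count of 5 of 5 can partly follow from it. Only 6 of the 10 blood, immune and vessel genes passed the filter. Of these 10, 6 to 9 reached 1 FPKM in the HT-M libraries, against 4 or 5 in NC-F. The count of 4 of 6 thus has the same limit. The summed level of 11 granulosa and theca genes was 134.9 to 144.2 FPKM in HT-M and 46.5 to 71.0 in NC-F, with 1 or 2 of them at 0 in each HT-M library. For 10 blood, immune and vessel genes the sums were 290.2 to 317.9 in HT-M and 35.3 to 98.9 in NC-F. The 12 oocyte genes summed to 7375 to 7875 in HT-M and to 8288 to 9517 in NC-F, and 6 of them were called lower and 1 higher. The gene fshr is on both the Sertoli and Leydig cell list and the granulosa and theca list, so these lists are not separate. Such counts from bulk tissue do not show which cells held the transcripts. The part of these cell types in the results for the 10 genes was not tested.

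Over the 28 days at 20 °C, no member passed the test in ovary-type gonads. In NC-F against IC-M, limma called 0 of the 8 members tested, and 0 had an unadjusted p under 0.05, where 25.5% of the 17026 genes were called in either direction. The largest log2 differences were 0.49 ± 0.267 for syce2 (limma adjusted p = 0.202) and 0.35 ± 0.186 for rad21l1 (0.188). Rad21l1 and trip13 were the 2 members whose groups did not overlap, with 47.8% of all genes tested showing no overlap.

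The heated ovary-type libraries were also set against day 0, in HT-M against IC-M. Here 1 member was called higher and 3 lower of 8 tested, where 16.1% and 8.44% of all genes were called higher and lower. The same 4 had groups that did not overlap, as had 37.2% of all genes tested. Sycp3 was lower by log2 −2.08 (limma adjusted p = 0.000731), sycp2l by −0.63 (0.00563) and trip13 by −0.55 (0.0138), and hormad1 was higher by 1.47 (0.000326). Trip13 lost its call without IC-M replicate 1 (adjusted p = 0.0555) and with all 18 libraries fitted (0.298). Rad21l1 missed the threshold (−0.55, adjusted p = 0.0631) and passed it without IC-M replicate 3 (0.0148), without HT-M replicate 1 (0.0478) and with median-of-ratios scaling (0.024). Here too 5 of 5 tested granulosa and theca genes and 5 of 6 blood, immune and vessel genes were called higher in HT-M. Of the tested Sertoli and Leydig cell genes, 7 of 10 were higher and 1 lower. The part of these genes in the members' differences was not tested. In each IC-M library 3 of the 11 granulosa and theca genes reached 1 FPKM, against 5 in each HT-M library, so the filter limit given above holds here too. It also holds for the 10 blood, immune and vessel genes, of which 3 or 4 reached 1 FPKM in IC-M libraries and 6 to 9 in HT-M. This comparison shares its HT-M libraries with the one above, and the 2 are not independent.

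**Figure D2:**
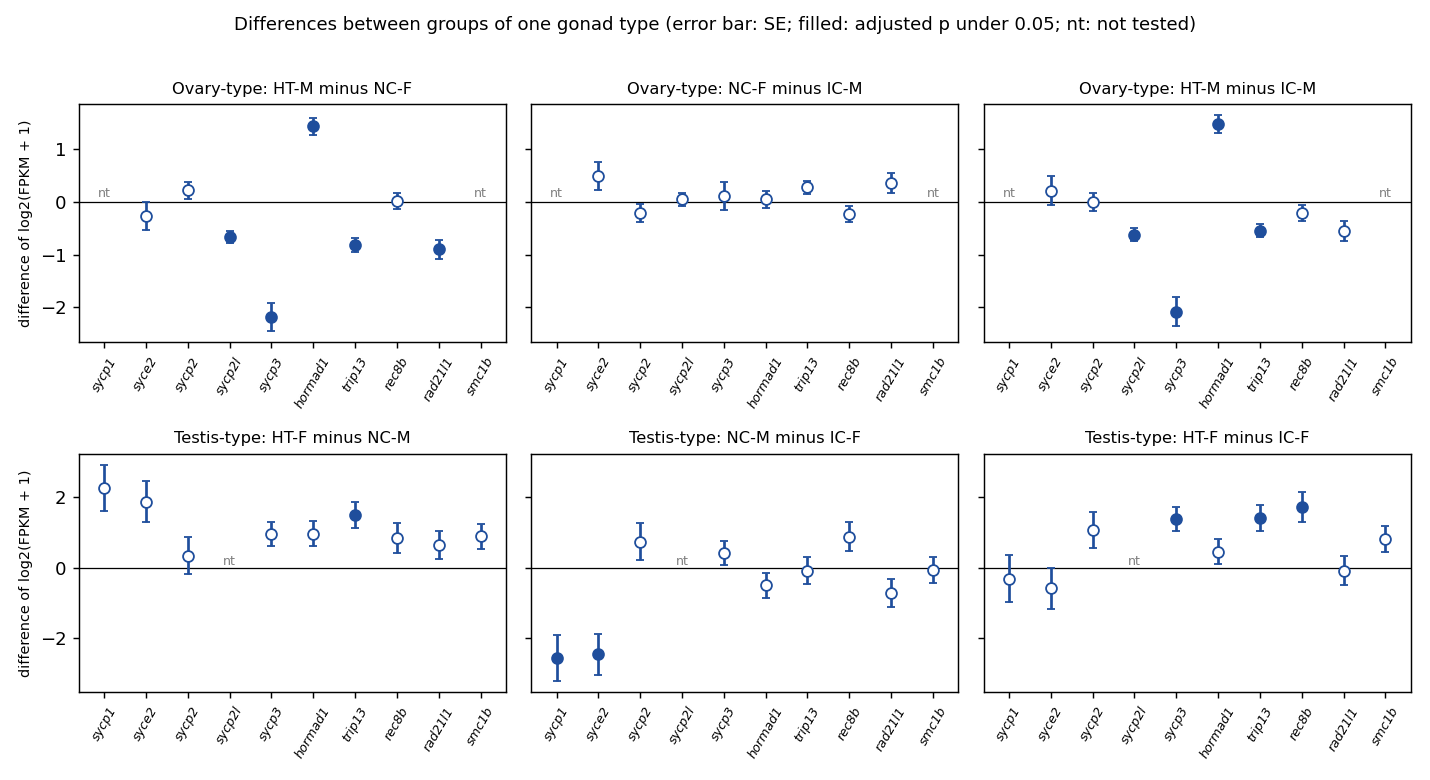
Differences of log2(FPKM + 1) between labelled groups of one gonad type for the 10 genes, ovary-type above and testis-type below, with SE bars; filled points have a limma adjusted p under 0.05 and nt marks genes not tested. Sycp3 lies at −2.19 and hormad1 at 1.43 in HT-M minus NC-F, and sycp1 and syce2 lie at −2.58 and −2.47 in NC-M minus IC-F.

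In testis-type gonads the unheated group NC-M was split, and the comparison with heat turned on that split. Of the 10 genes, 9 were highest in NC-M 3 and the same 9 lowest in NC-M 1, and only sycp2l was lowest in NC-M 3. How many of all genes rank these libraries in the same way was not computed, so this order is not read as particular to the members. The excess of NC-M 3 over the higher of the other 2 libraries ran from 1.83-fold for sycp3 to 6.58-fold for sycp1. Ddx4 had levels of 188.29, 320 and 462.64 FPKM in the same 3 libraries. The 11 germ cell genes summed to 504.3 FPKM in NC-M 1 and 1105 in NC-M 3, and the 26 spermatid and sperm genes to 1723 and 3241. The 12 Sertoli and Leydig cell genes were lowest in NC-M 3, at 514.6 FPKM.

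With all libraries, HT-F against NC-M called 1 of 9 members tested, trip13, where 6.17% of the 22791 genes tested were called higher and 4.5% lower. Trip13 rose from 12.5 ± 8.66 to 32.5 ± 1.94 FPKM (SD, n = 3 each), a log2 difference of 1.50 ± 0.376 (SE, limma adjusted p = 0.0443). The call was lost without NC-M replicate 1 (adjusted p = 0.0907), without NC-M replicate 2 (0.125), without HT-F replicate 1, 2 or 3 (0.0882, 0.131 and 0.12) and with no filter (0.0675). The other log2 differences were 2.26 for sycp1 (adjusted p = 0.0608), 1.88 for syce2 (0.0686), 0.97 for sycp3 (0.0881), 0.97 for hormad1 (0.0991), 0.89 for smc1b (0.118), 0.83 for rec8b (0.188), 0.65 for rad21l1 (0.269) and 0.33 for sycp2 (0.664). Sycp1, syce2, sycp3 and trip13 had groups that did not overlap, as had 31.2% of all genes tested.

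Without NC-M replicate 3, all 9 members tested were called higher in HT-F, where 28.6% of 22407 genes were called higher and 19.2% lower. The log2 differences then ran from 0.98 ± 0.298 for sycp2 (limma adjusted p = 0.0295) to 3.19 ± 0.146 for sycp1 (2e-05), with 1.99 ± 0.165 for trip13 (0.000118), whose rise was 4.29-fold with NC-M 1 and 2 alone. Without NC-M replicate 1 or 2 instead, trip13 lost its call as given above, and 647 and 324 of all genes were called. Whether NC-M 3 or NC-M 1 and 2 represent the unheated testis-type gonad cannot be told apart with 3 libraries.

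Between day 0 and day 28 at 20 °C as labelled, the central region genes sycp1 and syce2 were lower in NC-M than in IC-F. These groups also differ in their letter and tanks, so day and letter cannot be told apart. Sycp1 went from 120.5 ± 12.8 FPKM in IC-F to 30.7 ± 36.4 in NC-M, 3.93-fold lower, and syce2 from 127.7 ± 9.31 to 31.8 ± 33.8, 4.02-fold lower (SD, n = 3 each). Both were called, by log2 −2.58 ± 0.664 (limma adjusted p = 0.0197) and −2.47 ± 0.590 (0.0152), and they were the 2 called lower of 9 tested, where 18.1% of all genes were called lower and 16.4% higher. They were also the 2 members whose groups did not overlap, as 50.5% of all genes tested did not. Neither count of 2 of 9 stands out from its share of all genes, so neither is read as a result about the members. Sycp1 lost its call without any 1 of IC-F 1, 2 or 3 or NC-M 1 or 2 (adjusted p between 0.0543 and 0.0672), and syce2 without IC-F 1, IC-F 3 or NC-M 2 (0.0521, 0.0512 and 0.053). Without NC-M replicate 3, 5 members were lower, where 26.8% of all genes were: sycp1, syce2, hormad1 (−0.98, adjusted p = 0.00175), rad21l1 (−1.27, 0.000689) and trip13 (−0.58, 0.0208). Sycp1 was then 12.4-fold lower and syce2 10.4-fold lower than in IC-F. Without NC-M replicate 1, sycp2 (1.34, adjusted p = 0.0365) and rec8b (1.29, 0.0426) were called higher. When single libraries were left out, 3787 to 12149 of all genes were called in this comparison, so these 2 calls are not read as a result about the members. In the same comparison 19 of 25 tested spermatid and sperm genes were called lower, with sums of 5983 to 6100 FPKM in IC-F and 1723 to 3241 in NC-M. The part of sperm-forming cells in the fall of sycp1 and syce2 was not tested.

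The heated testis-type libraries, compared with day 0 (HT-F against IC-F), had more sycp3, rec8b and trip13. Sycp3 rose 2.61-fold (log2 1.38 ± 0.344, limma adjusted p = 0.0242), rec8b 3.35-fold (1.72 ± 0.427, 0.0239) and trip13 2.80-fold (1.41 ± 0.376, 0.0302). These were the 3 called of 9 tested, where 14.8% of all genes were called higher and 9.04% lower. Each of the 3 lost its call without any 1 of the 6 libraries (adjusted p between 0.0506 and 0.1). The spread in this fit also came from the split NC-M libraries, and none of those was left out in this comparison. These adjusted p-values thus do not rest on the spread of IC-F and HT-F alone. Of the 9 members tested, 8 had groups that did not overlap, as had 59.4% of all genes; sycp2, hormad1 and smc1b were higher and sycp1 and syce2 lower in every HT-F library without passing the test. Sperm genes summed to 2677 to 3290 FPKM in HT-F, below IC-F, and 5 of 25 tested were called lower. Of the Sertoli and Leydig cell genes 6 of 12 were called higher, and of the germ cell genes 3 of 10, with none lower in either list, and their part in the rise of the 3 members was not tested.

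The heat differences of the gonad types were compared directly, as HT-F minus NC-M against HT-M minus NC-F in a fit of all 18 libraries. As labelled, HT-F minus NC-M crosses from M to F and HT-M minus NC-F from F to M. A difference tied to the letter or its tanks therefore does not cancel here and cannot be told apart from temperature. For 5 of the 10 genes the difference was more positive in testis-type libraries and for none more negative, where 16.4% and 16.3% of all 25184 genes were called in these directions. The members' median was 1.18 on the log2 scale, against −0.01 for all genes. Sycp3 had the largest such difference, 3.15 ± 0.452 (SE, limma adjusted p = 0.000271), and trip13 differed by 2.32 ± 0.413 (0.00116). Both genes were lower in HT-M than in NC-F. Sycp1 (2.38, adjusted p = 0.0208), syce2 (2.16, 0.0263) and rad21l1 (1.55, 0.0208) also passed, but all 3 lost the call with only the 12 libraries of the 4 groups fitted (0.0592, 0.0666 and 0.0506) and without NC-M replicate 2 (0.0537, 0.0654 and 0.0509). Rad21l1 also lost it without HT-M replicate 2 (0.0545), and syce2 without NC-F replicate 1 or 2, NC-M replicate 1 or HT-M replicate 2 (0.0519 to 0.0633). Sycp1 was at most 0.29 FPKM in the ovary-type libraries, so hardly any ovary-type heat difference can appear on this scale. Its result thus largely repeats HT-F against NC-M (2.26), where it was not called (limma adjusted p = 0.0608). Syce2 was also low in ovary-type libraries (0.57 to 2.54 FPKM) and not called in HT-F against NC-M (1.88, limma adjusted p = 0.0686). Hormad1 did not pass (−0.46 ± 0.408, adjusted p = 0.399). Without NC-M replicate 3, rec8b was called as well (1.38, limma adjusted p = 0.000204), which made 6 of 10, and 26.6% and 25.3% of all genes were called in the 2 directions.

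For the 28 days at 20 °C, the difference between the types (NC-M minus IC-F against NC-F minus IC-M) was called for sycp1 (−2.71 ± 0.714, limma adjusted p = 0.00917) and syce2 (−2.96 ± 0.680, 0.00419). These 2 of 10 compare with 18.7% of all genes called in that direction and 16.7% in the other. The count lies near that share and is not read as a result about the members. Here too the letter changes in opposite directions in the types, so day cannot be told apart from letter and tanks. As sycp1 was at most 0.29 FPKM in ovary-type libraries, its result largely repeats that of NC-M against IC-F (−2.58). Without NC-M replicate 3, hormad1 (−1.02, adjusted p = 0.00218), rad21l1 (−1.62, 0.000196) and trip13 (−0.85, 0.00376) joined them, and without NC-M replicate 1, sycp2 (1.55, 0.00934) and rec8b (1.53, 0.00962) were called in the opposite direction. When single libraries were left out, 7288 to 12488 of all genes were called in this difference, against 8919 of 25184 with all libraries. The added calls are therefore not read as a result about the members.

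Some ratios between members within a library varied less than the levels. In the 9 testis-type libraries sycp1 spanned 15.5-fold and syce2 13.6-fold, while the ratio of syce2 to sycp1 stayed between 0.808 and 1.31, NC-M included. The kleisins shifted against each other. Rec8b over rad21l1 was 0.455 to 0.514 in IC-F, 1.46 to 1.60 in NC-M and 1.60 to 1.84 in HT-F, so that both 28-day groups lay above day 0 in every library, although the levels of both genes in NC-M differed severalfold between libraries. Hormad1 over sycp3 was 1.60 to 1.67 in IC-F, 0.762 to 0.933 in NC-M and 0.826 to 0.900 in HT-F. Sycp2 over sycp3 overlapped between IC-F (0.0975 to 0.126) and NC-M (0.103 to 0.204). How often the ratios of other gene pairs separate these groups was not computed. A lack of overlap in these ratios, here and below, is therefore a description and not read as particular to the members.

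Sycp1 over sycp3, the central region against the axis, was 0.623 to 0.743 in IC-F, 0.0489 to 0.176 in NC-M and 0.183 to 0.231 in HT-F. The groups did not overlap, but NC-M 3 at 0.176 lay close to the lowest HT-F library at 0.183. Smc1b was also set against smc1a, the subunit that it replaces in meiosis. Their ratio was 0.744 to 0.846 in IC-F, 1.20 to 3.05 in NC-M and 2.82 to 3.87 in HT-F. In ovary-type libraries it reached 0.206 in HT-M 3 and was at most 0.0377 in the others.

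**Figure D3:**
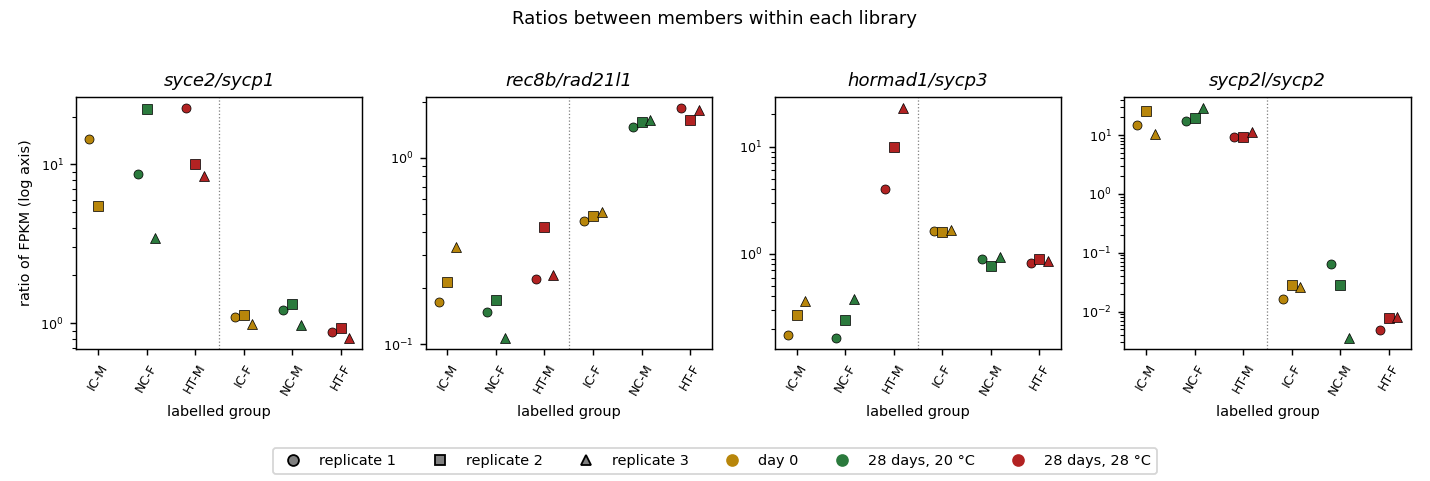
Ratios of FPKM between members in each library on a log axis, 1 panel per pair, by labelled group. Syce2/sycp1 stays between 0.808 and 1.31 in testis-type libraries, rec8b/rad21l1 is 0.455 to 0.514 in IC-F and 1.46 to 1.84 in the other testis-type groups, and hormad1/sycp3 is 4.06 to 22.8 in HT-M, over low sycp3; 1 IC-M library with sycp1 at 0 has no syce2/sycp1 point.

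The genes most like the 10 were sought by Pearson correlation with the mean of the members' log2(FPKM + 1), as a description over 9 libraries that share 3 groups. In testis-type libraries the 5 genes most alike were moto (r = 0.995), micos13 (0.991), ppp4r2b (0.990) and smc5 (0.989), with a gene that has only a clone-based name (0.993), of 7840 ranked. In ovary-type libraries they were pex26 (0.957), dmac2 (0.934) and clcn2a (0.905), with clone-based names at 0.927 and 0.894, of 6717 ranked. The ovary-type mean takes in members that moved apart, such as hormad1 and sycp3 in HT-M. It also includes smc1b, at 6.69 FPKM in HT-M 3 and at most 1.14 in the other ovary-type libraries. How far these correlations rest on that library was not tested, and the genes need not follow any single member. The lists have no gene in common.

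Neighbouring parts of the meiotic machinery were described by counts, to be read against the 28.7% higher and 20% lower of all genes in HT-M against NC-F and the 6.17% and 4.5% in HT-F against NC-M. None of 10 symbols for further axial and central element partners, such as syce1, syce3 and tex12, was matched in the table, and these genes were not analysed here. Of 16 matched genes of cohesin and its regulators, 13 were tested in HT-M against NC-F, and 9 were higher and 1 lower, with a median log2 difference of 0.51 against 0.07 for all genes. Among the higher were sgo1, the protector of centromeric cohesin (0.59 ± 0.101, limma adjusted p = 0.00212), the cohesin loader nipbla (0.72 ± 0.125, 0.00242) and the separase espl1 (0.56 ± 0.104, 0.00324). In HT-F against NC-M limma called 0 of 15, with 9 at an unadjusted p under 0.05. Nearest came pds5b (log2 0.53, adjusted p = 0.0554) and pds5a (0.55, 0.0612), both higher in HT-F, and stag2b, which was lower (−1.05, 0.0617). Without NC-M replicate 3, a setting chosen for these lists after seeing the data, 10 of 15 were called higher and 0 lower, where 28.6% and 19.2% of all genes were.

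For meiotic recombination, 15 of 19 matched genes were tested in HT-M against NC-F, and 2 were higher and 4 lower. Mnd1, a partner in strand exchange, fell from 28.6 to 6.82 FPKM (log2 −1.93 ± 0.153, limma adjusted p = 4.99e-05), rad51ap1 fell by 0.68 ± 0.106 (0.00142), and mei4, of the break-forming machinery, rose by 0.34 ± 0.0648 (0.00353). In HT-F against NC-M, 2 of 19 were higher and 1 lower. The break-forming gene rec114 was higher (1.08, adjusted p = 0.0483), as was the crossover gene cntd1 (2.18, 0.0486), and the crossover gene msh4 was lower (−0.76, 0.0421). Leaving out NC-M replicate 3 gave 14 of 19 higher and 1 lower. Genes of telomere attachment split evenly in both heat comparisons, with 2 higher and 2 lower of 4 tested in ovary-type libraries and 1 and 1 of 6 in testis-type ones. Of genes for meiotic entry and prophase control, 2 of 9 tested were higher and 1 lower in HT-M against NC-F, and 1 of 10 was higher and 1 lower in HT-F against NC-M. With NC-M replicate 3 left out, 3 of 6 telomere genes were higher and 1 lower, and 4 of 9 entry genes higher and 1 lower. In that setting 28.6% of all genes were called higher and 19.2% lower.

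The remaining marker lists were counted in the same way, to be read against the same shares of all genes. In HT-M against NC-F, 4 of 11 germ cell genes were higher and 4 lower, 2 of 5 spermatogonial genes higher and 1 lower, and 2 of 11 spermatid and sperm genes higher and 3 lower. In HT-F against NC-M, 2 of 10 germ cell genes and 1 of 8 spermatogonial genes were higher, and 1 of 25 spermatid and sperm genes and 1 of 7 oocyte genes moved in each direction. There, 2 of 12 Sertoli and Leydig cell genes were higher, 1 of 3 granulosa and theca genes lower, and 1 of 9 blood, immune and vessel genes higher and 2 lower. Leaving out NC-M replicate 3 there moved some of these counts, with 28.6% of all genes then called higher and 19.2% lower. In that setting 6 of 10 germ cell genes were higher, 17 of 25 spermatid and sperm genes higher and 2 lower. Of the Sertoli and Leydig cell genes, 3 of 12 were higher and 4 lower.

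**Figure D4:**
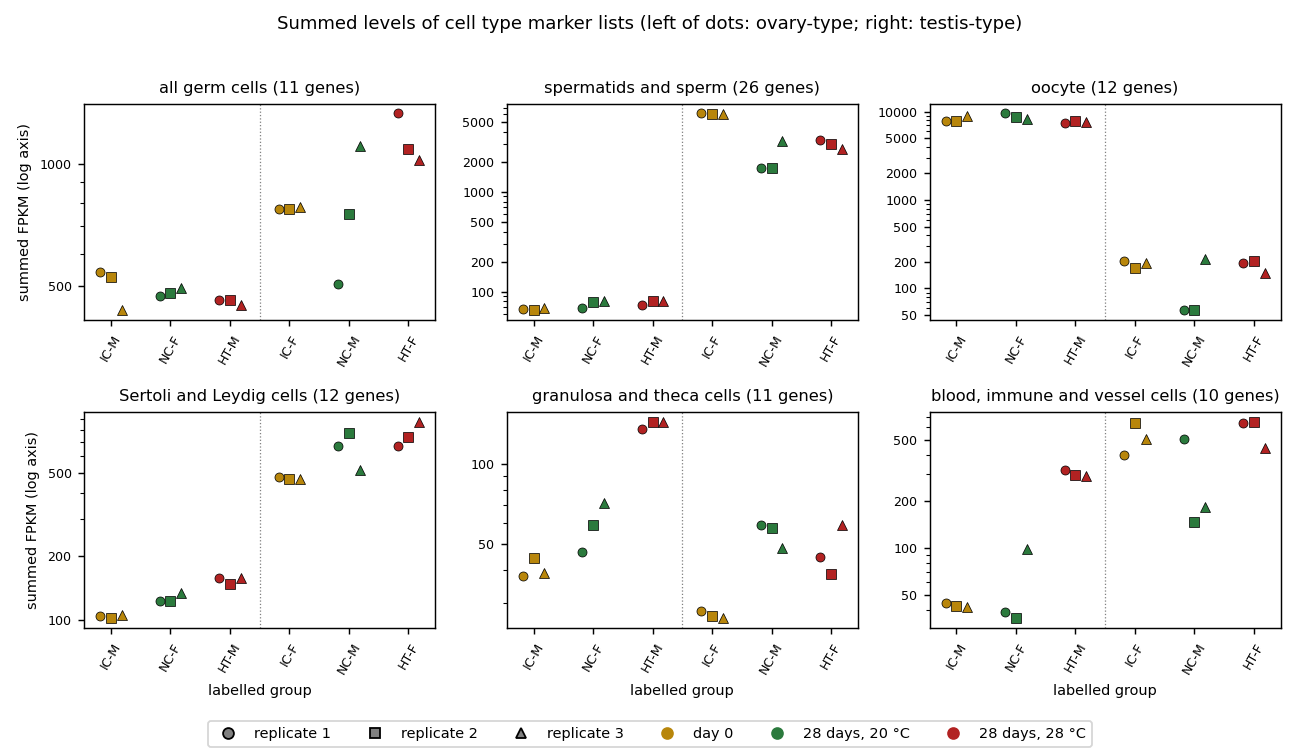
Summed FPKM of 6 marker lists in each library on a log axis, by labelled group. Granulosa and theca genes and blood, immune and vessel genes are higher in all 3 HT-M libraries than in NC-F and IC-M, and NC-M 3 is above NC-M 1 and 2 for germ cell, sperm and oocyte genes.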

How the data were processed

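Gonad RNA of 18 libraries was described from the authors' deposited FPKM table (2 decimals, per the file headers), with 37622 of 43106 entries named and 5484 carrying an assembly number only. Each library started from 0.4 ug of RNA, per the labels' protocols. Which aligner, counter and build were used is not given in the sources used here. From the named entries, 34962, including all 10 members, matched the RefSeq gene table of ASM1485139v1, used for names and overlapping neighbours. The unit gives no depth, no counting interval and no value for a single read.

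Groups came from the sample titles. Tests used limma 3.58.1 (lmFit, contrasts.fit, eBayes with trend) in R 4.3.3 on log2(FPKM + 1), a scale that understates changes of low genes, for genes at 1 FPKM or more in at least 3 libraries of the fit. P-values were adjusted by Benjamini-Hochberg over all genes tested and called under 0.05. Comparisons within a gonad type fitted its 9 libraries, and those between types fitted all 18. Gonad types were read from marker genes in these data. Several comparisons share groups. The fitting was tested on simulated data.

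The members, lists and tests were chosen with earlier results of these data known. Members are all described; up to 3 genes of the cohesin and recombination lists with the smallest adjusted p in each heat comparison, and the 5 named genes most alike (mean of at least 5 FPKM), are named; ddx4 and smc1a serve as references. Ratios and summaries used Python 3.11.15 with pandas 2.3.3, and figures matplotlib 3.10.9. Alternatives were a pseudocount of 0.1, no filter, a filter of 5 FPKM, median-of-ratios scaling, other libraries in the fit, robust eBayes, a replicate block and leaving out each library.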

Additional observations from a re-analysis of the deposited data

Results flagged for a closer look

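The heat difference (28 °C minus 20 °C after 28 days) differed between testis-type and ovary-type libraries, by a limma interaction test over 18 libraries, for 5 of the 10 genes. The differences, testis-type minus ovary-type on the log2(FPKM + 1) scale, were 3.15 for sycp3 (limma adjusted p = 0.000271), 2.32 for trip13 (0.00116), 2.38 for sycp1 (0.0208), 1.55 for rad21l1 (0.0208) and 2.16 for syce2 (0.0263). Of all genes tested, 16.4% and 16.3% were called in the 2 directions. With only the 12 libraries of the 4 groups fitted, sycp1 (0.0592), rad21l1 (0.0506) and syce2 (0.0666) missed the threshold, which left 2 of the 5. The difference over 28 days at 20 °C differed between the types for sycp1 (−2.71, limma adjusted p = 0.00917) and syce2 (−2.96, 0.00419), where 18.7% of all genes were called in that direction and 16.7% in the other. All 7 results include the NC-M libraries, whose replicates correlated least. In all 7 the letter also changes in opposite directions in the gonad types. Temperature or day thus cannot be told apart there from the letter and its tanks. For sycp1, at most 0.29 FPKM in ovary-type libraries, both differences largely repeat those within the testis-type libraries.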

How the results depend on the processing

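Over 11 comparisons and their alternatives, no difference of a member changed sign against a call: 1334 values kept their side of the threshold, 61 lost a call and 29 gained one. When single libraries were left out, the counts of members called moved beyond 1.5 times in 6 of 6 settings for HT-F against NC-M and for HT-F against IC-F. They did so in 5 of 6 for NC-M against IC-F and in 2 of 12 for each difference between types. Among the other settings these counts moved in few. With all 18 libraries fitted, 3 members (5 as reported) were called in HT-M against NC-F and 5 (1 as reported) in HT-F against NC-M. With no filter and with the replicate block, HT-F against NC-M called 0. The heat difference between types called 2 with only its own groups fitted, and the 28-day difference called 4 with median-of-ratios scaling. Counts over all genes moved to 2815 (4345 as reported) in NC-F against IC-M and to 8941 (5438) in HT-F against IC-F with all 18 libraries, and to 8568 (2432) in HT-F against NC-M. They moved to 2463 (4179) in HT-M against IC-M with the filter at 5 FPKM, and in HT-F against NC-M to 1141 with no filter and 129 with the replicate block, which gave 3390 in HT-F against IC-F. The cause was not tested.

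Leaving out each library in turn gave these ranges of members and of all genes called. They were 2262 to 4393 genes in NC-F against IC-M and 2566 to 5709 in HT-M against IC-M. In HT-F against NC-M they were 0 to 9 members and 62 to 10693 genes, in NC-M against IC-F 0 to 5 members and 3787 to 12149 genes, and in HT-F against IC-F 0 members each time and 1815 to 5263 genes. The heat difference between types gave 2 to 6 members and 6212 to 12914 genes, and the 28-day difference 2 to 5 members.

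Same-numbered replicates did not deviate together (correlations −0.243 to 0.242 in ovary-type and −0.156 to 0.0305 in testis-type libraries). Of 18 libraries, 3 correlated best with a library of another group that has its own number. No pairing by number was seen, but deviations within groups of 3 are a weak check. Whether same-numbered samples share a tank or an animal is not stated. With the block, trip13 missed the threshold in HT-F against NC-M (adjusted p = 0.0801), HT-F against IC-F (0.0501) and HT-F against HT-M (0.0522), and no other call of a member changed. Median-of-ratios scaling moved the median log2 difference of all genes from 0.09 to −0.01 in HT-F against NC-M, from 0.10 to −0.07 in HT-F against IC-F, from −0.01 to −0.19 in the heat difference between types and from 0.57 to 0.69 in NC-M against NC-F. The share of calls that were higher went from 57.9% to 40.7%, from 62.1% to 40.7% and from 50.1% to 38.2% in the first 3 of these. Depth is unknown, so what low levels such as those of sycp1 and smc1b in ovary-type libraries could resolve cannot be stated.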
